A study of Mus musculus with 44 samples.

Results

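T cell and cytotoxic lymphocyte genes were followed in bulk liver RNA of mice of 3 genotypes on 3 diets. The 10 genes are those of the CD3 chains (Cd3d, Cd3e and Cd3g), the coreceptors (Cd4, Cd8a and Cd8b1), the granule and cytotoxicity genes (Gzmb, Gzmk and Nkg7) and the checkpoint receptor gene Pdcd1. They were taken as a named list, matched from Ensembl identifiers to mouse symbols in the deposited counts, and all 10 were found among the 35249 genes of the table.

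Wild-type mice (WT), Ripk3 knockouts (Ripk3-/-, Ripk3KO) and Mlkl knockouts (Mlkl-/-, MlklKO) were put on diet at 2 months of age and kept on it for 6 months. They ate chow, called control here, or one of a pair of choline-deficient diets, low in fat (CD-LFD) or high in fat (CD-HFD). Lack of choline injures the liver and is used to model fatty liver disease and liver cancer. RIPK3 is the kinase that phosphorylates MLKL, and MLKL then ruptures the plasma membrane, so that either knockout blocks necroptosis; the study asked how expression differs between these groups. There were 44 libraries, with 6 for each WT group, 6, 3 and 4 for Ripk3KO on control, CD-LFD and CD-HFD, and 6, 4 and 3 for MlklKO. Both knockouts are described only as whole-animal genotypes, and neither the strain background nor the sex is given in the labels. The labels number the libraries without saying that each is a separate mouse, so the p-values measure the spread between libraries.

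A T cell reads antigen through its T cell receptor, which signals into the cell through the CD3 chains. CD4 and CD8 are the coreceptors that mark helper and cytotoxic T cells and bind MHC class II and class I. Cytotoxic T cells and natural killer (NK) cells kill by releasing granzymes from granules, and PD-1, the product of Pdcd1, is induced by antigen stimulation and restrains the T cell. In steatohepatitis, PD-1-bearing CD8 T cells are known to gather in the liver.

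The genes are coded by Cd3d (ENSMUSG00000032094), Cd3e (ENSMUSG00000032093), Cd3g (ENSMUSG00000002033), Cd4 (ENSMUSG00000023274), Cd8a (ENSMUSG00000053977), Cd8b1 (ENSMUSG00000053044), Pdcd1 (ENSMUSG00000026285), Gzmk (ENSMUSG00000042385), Gzmb (ENSMUSG00000015437) and Nkg7 (ENSMUSG00000004612). Cd3g, Cd3d and Cd3e lie side by side on chromosome 9, and Cd8a and Cd8b1 are neighbours on chromosome 6, with no protein-coding gene between the members of either group in RefSeq. Of the 10 members, 8 had an entry in the RefSeq promoter table for GRCm38.p6, and Cd4 and Cd8b1 did not. The 250 bases before the annotated start follow for the 3 CD3 chain genes, which are neighbours, and for Gzmb and Nkg7, the cytotoxic genes with motif matches. All are written 5′ to 3′ on the strand of the gene, and the capitals mark matches to the motifs searched on both strands.
Cd3d, chr9:44981536-44981785, plus strand: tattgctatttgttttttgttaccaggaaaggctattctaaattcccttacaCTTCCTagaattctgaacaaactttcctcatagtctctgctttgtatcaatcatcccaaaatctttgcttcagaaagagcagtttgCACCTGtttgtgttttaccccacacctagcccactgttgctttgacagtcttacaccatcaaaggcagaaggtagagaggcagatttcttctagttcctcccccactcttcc
Cd3g, chr9:44980432-44980681, minus strand: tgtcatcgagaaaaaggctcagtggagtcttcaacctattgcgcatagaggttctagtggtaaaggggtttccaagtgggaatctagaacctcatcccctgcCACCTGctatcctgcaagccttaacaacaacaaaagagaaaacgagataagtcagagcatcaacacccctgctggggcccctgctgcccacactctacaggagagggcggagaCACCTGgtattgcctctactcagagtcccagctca
Cd3e, chr9:45009612-45009861, minus strand: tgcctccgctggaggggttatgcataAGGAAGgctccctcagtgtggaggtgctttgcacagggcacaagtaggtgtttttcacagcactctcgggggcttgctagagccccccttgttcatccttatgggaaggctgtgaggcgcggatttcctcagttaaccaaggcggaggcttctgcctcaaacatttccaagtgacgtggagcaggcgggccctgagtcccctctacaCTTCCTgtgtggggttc
Gzmb, chr14:56262335-56262584, minus strand: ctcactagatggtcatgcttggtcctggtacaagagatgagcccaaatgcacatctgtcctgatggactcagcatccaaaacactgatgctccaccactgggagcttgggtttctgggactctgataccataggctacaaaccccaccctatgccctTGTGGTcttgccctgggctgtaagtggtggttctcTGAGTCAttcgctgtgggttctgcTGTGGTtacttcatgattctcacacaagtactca
Nkg7, chr7:43436888-43437137, plus strand: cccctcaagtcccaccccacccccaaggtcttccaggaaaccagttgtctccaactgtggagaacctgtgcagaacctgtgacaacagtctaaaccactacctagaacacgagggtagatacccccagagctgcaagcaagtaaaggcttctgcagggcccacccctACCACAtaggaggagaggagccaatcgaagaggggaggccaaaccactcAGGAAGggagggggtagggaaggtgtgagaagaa

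Cd3d and Cd3g stand head to head, with starts 1355 bases apart. The ETS core AGGAAG (read on either strand, so also as CTTCCT) was found in 4 of the 8 member promoters, those of Cd3d, Cd3e, Nkg7 and Pdcd1, and in 29.5% of all 32851 promoters in the table. The E-box CAGGTG was found in Cd3d and, at 2 places, in Cd3g, against 17.2% of all promoters. The RUNX core TGTGGT was found in Gzmb and Nkg7, against 14.0%, and the AP-1 letters TGACTCA in Gzmb, against 4.46%. In Gzmb the AP-1 letters lay 58 to 52 bases before the start, between RUNX letters at 93 to 88 and at 34 to 29 bases. TATAAA was found in 0 of the 8 windows and in 12.4% of all promoters. These matches describe the letters of the windows and are not measured binding sites.

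The labels were first checked against the targeted genes, in CPM, counts scaled to the size of the library and by the trimmed mean of M-values (TMM). Ripk3 ranged from 0.511 to 4.89 CPM in the WT libraries and from 0 to 1.26 in the Ripk3KO libraries, 7 of which had no count. The highest was the library labelled Ripk3KO control replicate 5, with 1.26 CPM from 9 counts, where the next in its group had 0.326 CPM and 3 of the 6 WT control libraries were lower. Its Mlkl level of 8.10 CPM was above those of the other Ripk3KO controls (at most 4.41) and the WT controls. Mlkl was 1.46 to 3.04 CPM in the MlklKO controls and 2.98 to 4.15 in the MlklKO CD-LFD libraries, against 2.28 to 6.15 and 9.85 to 14.5 in WT on the same diets. On CD-HFD it was 2.80 and 4.83 CPM in MlklKO replicates 2 and 4, but the library labelled MlklKO CD-HFD replicate 1 had 12.5 CPM, from 72 counts, near the WT range of 14.3 to 17.7. In both libraries the targeted gene thus stood above the rest of the labelled group, and whether a label is wrong was not tested. Without the MlklKO one, the log2 changes of the 10 members on CD-HFD against MlklKO control moved by 0.20 to 0.40, while those against Ripk3KO control moved by -0.31 to 0.20 once the library labelled Ripk3KO control replicate 5 was left out. No call of a member against control or against WT on the same diet changed in these fits (edgeR's quasi-likelihood test), and the results that did change are given below with and without the library. Library totals ran from 2476268 to 12471844 counts in 43 libraries and reached 88204703 in WT CD-LFD replicate 3.

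At these depths the members rested on few counts in the control livers. Leaving Cd4 aside, 75 of the 162 values of the other 9 genes in the 18 control libraries were 0, and the highest was 5 counts. Pdcd1 had no count in 15 of the 18 control libraries, Gzmk in 14 and Cd8b1 in 11. Cd4 was counted in all 18, with 1 to 22 counts. All 10 members passed the filter on low counts over the 9 groups, 9 of them mainly through the diet groups in which they were high, so that the counts of members called below are descriptions of the list. The values by library are drawn in the plot of member levels.

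**Figure D1:**
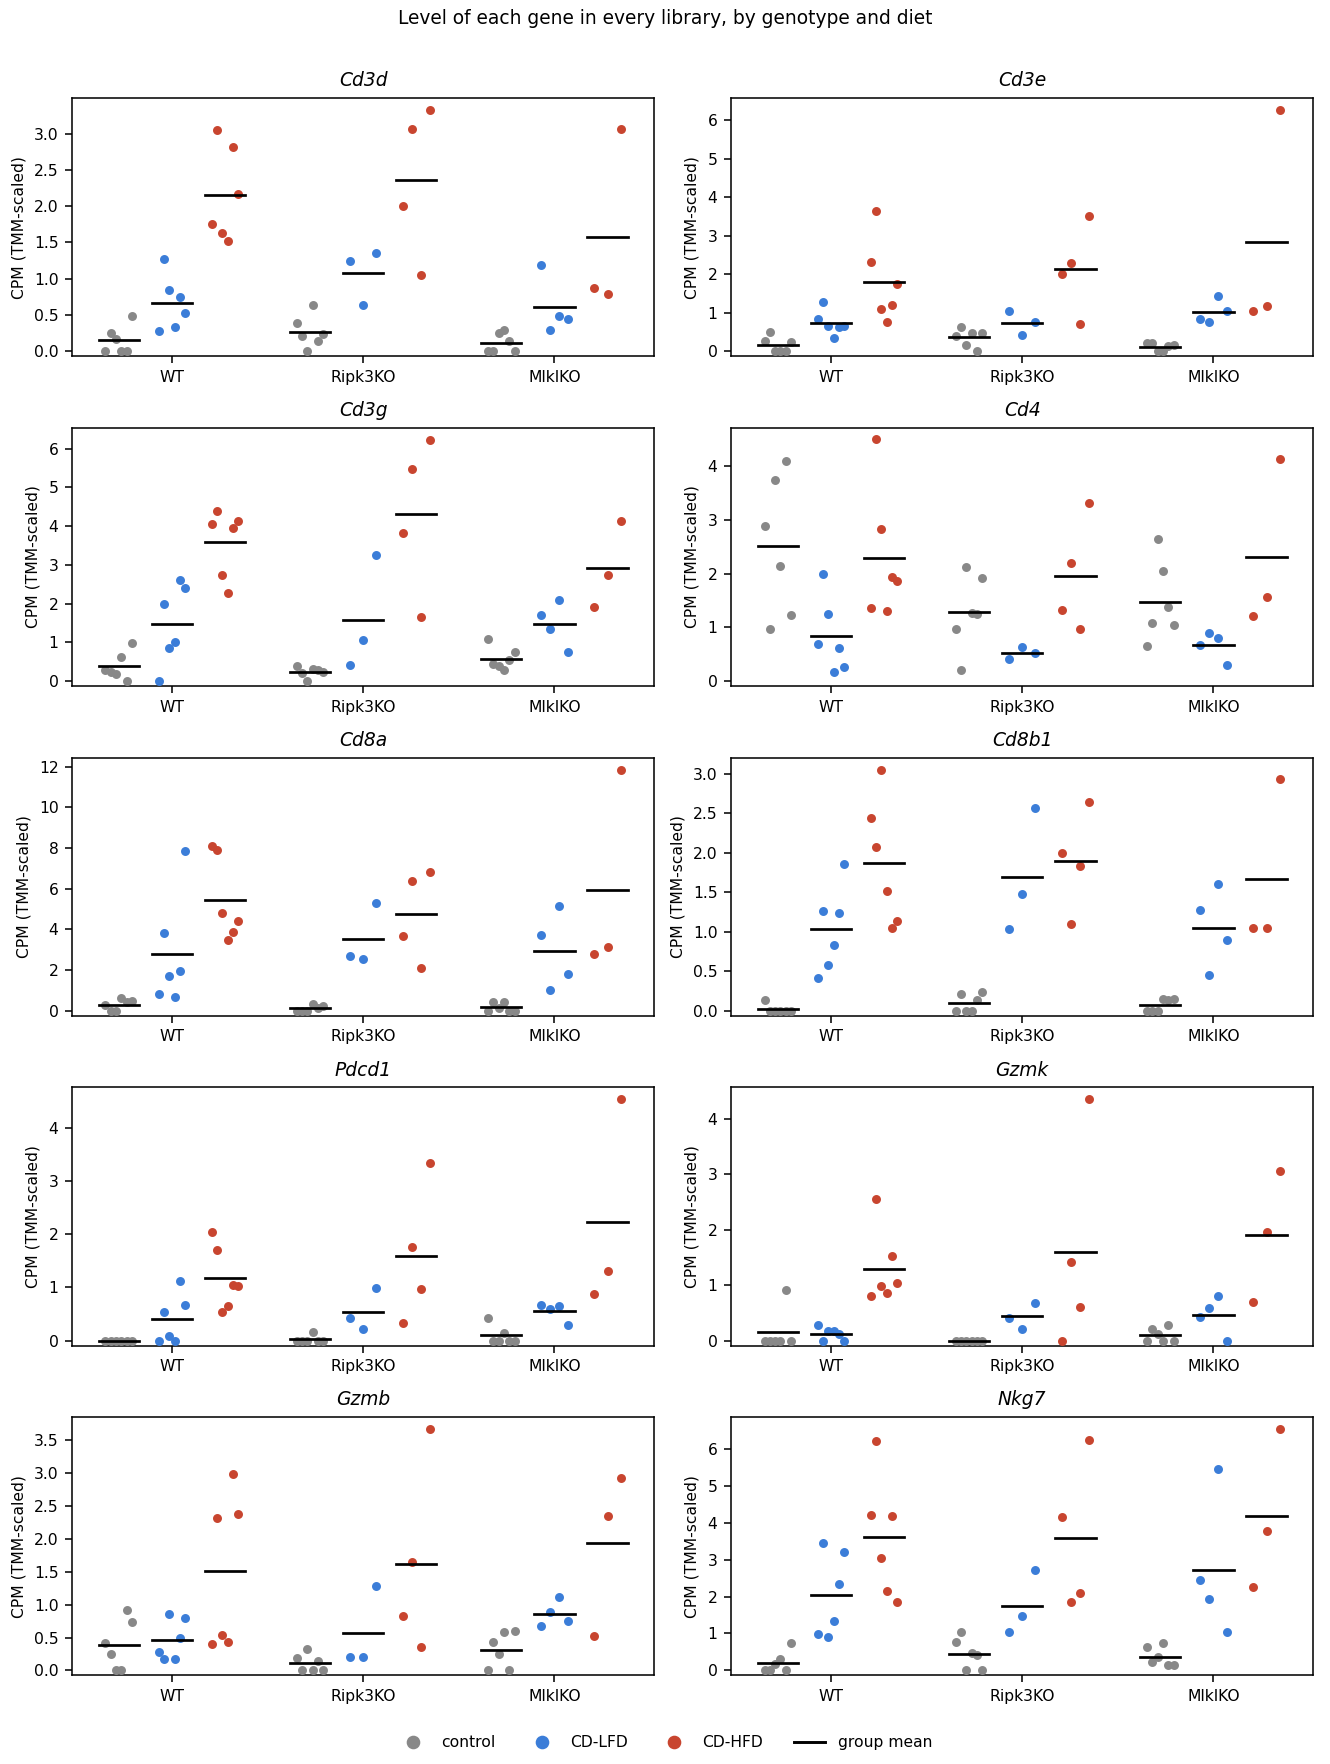
Level of each of the 10 genes in each of the 44 libraries, in TMM-scaled CPM on a linear axis, with 1 panel for each gene and genotypes along the x axis; points are libraries coloured by diet and black lines are group means. The CD-HFD mean is the highest of the 3 diets for every gene in each genotype, except for Cd4 in WT.

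On CD-HFD, 9 of the 10 members, all but Cd4, rose in WT livers, and the same count was reached in Ripk3KO and in MlklKO livers. In WT the median log2 change of the 10 was 3.78, against -0.07 over all 14862 genes tested, and it was 3.55 with Pdcd1, which had no control count, set at its lower bound. The medians were 3.89 in Ripk3KO and 3.76 in MlklKO. Over all genes, 23.5% were called higher in WT CD-HFD against control, 24.6% in Ripk3KO and 24.9% in MlklKO (edgeR's quasi-likelihood test, Benjamini-Hochberg adjusted p under 0.05). With library size alone in place of the scaling, 87.0%, 90.3% and 89.7% of the genes called in these 3 comparisons were higher, where the main scaling had 49.4%, 53.1% and 55.1%, and the median of all genes moved up by 0.49, 0.53 and 0.53; the members called were then 9, 10 and 9, with Cd4 added in Ripk3KO. Under the main scaling the count stayed 9 without any single library in each genotype, including the library labelled MlklKO CD-HFD replicate 1 and the library labelled Ripk3KO control replicate 5. Libraries of the 2 groups did not overlap, all CD-HFD above all control, for 7 members in WT, 8 in Ripk3KO and 8 in MlklKO, where 14.3%, 20.6% and 22.2% of all genes did so. In bulk RNA, more cells of a type and more RNA per cell cannot be told apart.

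The CD-LFD gave a part of this. In WT, 7 members rose against control (Cd3d, Cd3e, Cd3g, Cd8a, Cd8b1, Pdcd1 and Nkg7), where 13.7% of all genes were called higher, and Cd4 fell, where 14.0% were called lower; Gzmb and Gzmk did not pass. In Ripk3KO, 7 rose (Cd3d, Cd3g, Cd8a, Cd8b1, Pdcd1, Gzmk and Nkg7), against 14.0% of all genes. In MlklKO, 6 rose (Cd3d, Cd3e, Cd8a, Cd8b1, Pdcd1 and Nkg7), against 19.7%. All CD-LFD libraries lay above all controls for 3 members in WT (Cd8a, Cd8b1 and Nkg7), 6 in Ripk3KO and 6 in MlklKO, against 5.04%, 10.9% and 13.6% of all genes. The counts of calls moved with single libraries. The WT count of 8 became 5 without WT CD-LFD replicate 5, replicate 6 or WT control replicate 3, and 4 without WT control replicate 1, and Cd4 was called in each of these fits. It became 3 (Cd8a, Cd8b1 and Nkg7) when the fit held only the 2 groups, with the same genes tested, and 9.26% of all genes were then called higher and 6.09% lower. Without WT control replicates 5 and 6 together it was 7, losing Cd3e, and 21.8% of all genes were called higher and 21.3% lower. The Ripk3KO count became 2 (Cd8a and Cd8b1) without Ripk3KO CD-LFD replicate 3. With library size alone, 84.9%, 88.4% and 66.1% of called genes were higher in WT, Ripk3KO and MlklKO, where the main scaling had 49.6%, 58.0% and 51.9%, and the median of all genes moved up by 0.30, 0.31 and 0.14.

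Between the 2 choline-deficient diets, 5 members were higher on CD-HFD in WT (Cd3d, Cd3e, Cd3g, Cd4 and Gzmk), against 13.7% of all genes. In MlklKO 2 were higher (Cd4 and Pdcd1), against 14.6%. In Ripk3KO 0 passed with edgeR, against 5.75% of all genes, although 4 had an unadjusted p under 0.05, and DESeq2 called 1, Cd4. A fit of only the 2 Ripk3KO groups, with the same genes tested, called 1 member, Cd4, and 9.55% of all genes higher. All CD-HFD libraries lay above all CD-LFD libraries for 2 members in WT (Cd3d and Gzmk), 1 in Ripk3KO (Cd4) and 2 in MlklKO (Cd4 and Pdcd1), against 7.63%, 16.0% and 20.8% of all genes. The WT count of calls was 3 without WT CD-HFD replicate 2, losing Cd3e and Cd4. Without WT CD-LFD replicate 3, the deepest library, it was 4, losing Cd3e and Cd3g and gaining Gzmb. With the log2 ratio of the clock genes Arntl and Dbp as a covariate it was 2, losing Cd3d, Cd3e and Cd3g; that ratio ran from -2.68 to -0.28 in WT CD-LFD and from -6.35 to -2.14 in WT CD-HFD libraries. DESeq2, and edgeR without a count filter, each lost Pdcd1 in MlklKO. The MlklKO count was 4 without the library labelled MlklKO CD-HFD replicate 1, with Cd3e and Gzmk added, and 0 without MlklKO CD-HFD replicate 4 or MlklKO CD-LFD replicate 4. It was 1 without MlklKO CD-LFD replicate 1 (Cd3d) or replicate 2 (Cd4). The Ripk3KO count was 1 without Ripk3KO CD-HFD replicate 3 (Cd4) or Ripk3KO CD-LFD replicate 3 (Cd3g). With library size alone, 85.9%, 88.8% and 92.5% of the genes called were higher in WT, Ripk3KO and MlklKO, where the main scaling had 65.0%, 65.1% and 61.4%, and the median of all genes moved up by 0.19, 0.22 and 0.39; the members called were then 8, 1 and 5 in the same order. RLE size factors gave 4 in MlklKO. The group means ran control, CD-LFD, CD-HFD in rising order for 8 of the 10 members in WT, all but Cd4 and Gzmk, and for 9, all but Cd4, in each knockout.

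**Figure D2:**
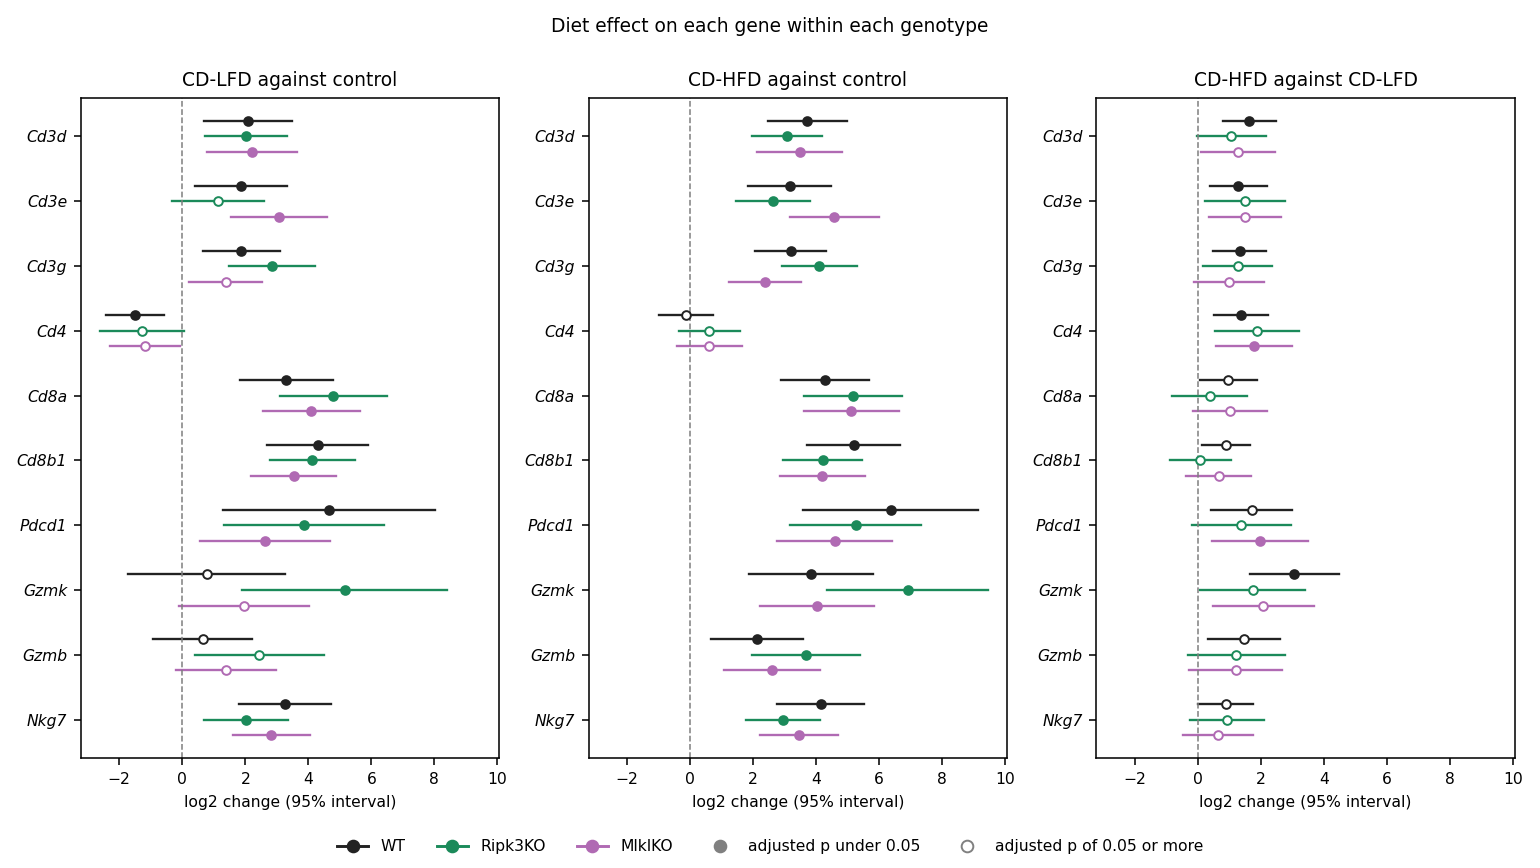
Log2 change of each of the 10 genes between diets within each genotype, from the edgeR fit, with bars for the 95% interval, filled points where the adjusted p is under 0.05 and a dashed line at 0. On CD-HFD against control the intervals of 9 genes lie above 0 in each genotype and that of Cd4 spans 0.

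The CD3 chains couple the T cell receptor to its signalling kinases, and their transcripts mark T cells as a whole. Their summed level in WT averaged 0.699 CPM on control, 2.87 on CD-LFD and 7.54 on CD-HFD, and it was 0.863, 3.39 and 8.79 in Ripk3KO and 0.813, 3.09 and 7.33 in MlklKO. The MlklKO CD-HFD mean was 4.26 without replicate 4 and 9.08 without the library labelled replicate 1. In WT, Cd3d was 0 to 0.489 CPM on control (median 0.0851), 0.279 to 1.27 on CD-LFD (median 0.637), and 1.51 to 3.04 on CD-HFD (median 1.96). All 6 CD-HFD libraries thus lay above all control and all CD-LFD libraries, while the CD-LFD and control ranges overlapped. Cd3d was 3.72 ± 0.62 (log2, SE) higher on CD-HFD than on control, with a 95% interval of 2.47 to 4.97 and an edgeR adjusted p of 3.58e-06. As a ratio of pooled counts, which takes no prior count, this was 14.7-fold, with a counting interval of 5.58 to 54.7.

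Cd3g in WT was 0 to 0.978 CPM on control (median 0.260), 0 to 2.60 on CD-LFD (median 1.50), and 2.27 to 4.38 on CD-HFD (median 4.01). The CD-HFD libraries were all above the controls and overlapped CD-LFD at the top of its range. Cd3g rose by 3.20 ± 0.56 on the log2 scale (SE; edgeR adjusted p = 9.2e-06), or 9.58-fold in pooled counts (5.10 to 20.3). Cd3e, the chain that pairs with each of the others, rose by 3.16 ± 0.66 (edgeR adjusted p = 0.000107), from a median of 0.122 CPM on control to 1.48 on CD-HFD, and these ranges did not overlap either.

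In the knockouts the CD3 chains spread widely within a group. Cd3d on CD-HFD was 2.00, 3.07, 1.05 and 3.33 CPM in Ripk3KO replicates 1, 2, 3 and 5, and 0.871, 0.783 and 3.07 CPM in the libraries labelled MlklKO replicates 1, 2 and 4. Cd3e in the same libraries was 1.04, 1.17 and 6.26 CPM, so that replicate 4 alone carried most of the mean of 2.83, which was 1.11 without it. All CD-HFD libraries of both knockouts nevertheless lay above every control library of their genotype for Cd3d and Cd3e. Cd3d rose by 3.08 in Ripk3KO (edgeR adjusted p = 1.3e-05) and by 3.48 in MlklKO (4.18e-05) on the log2 scale, or by 3.73 without the library labelled MlklKO CD-HFD replicate 1.

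Of the coreceptors, CD8 is formed by the products of Cd8a and Cd8b1, and both transcripts rose from near absence. In WT, Cd8a was 0 to 0.615 CPM on control (median 0.366), 0.668 to 7.86 on CD-LFD (median 1.84), and 3.46 to 8.13 on CD-HFD (median 4.62). Every WT library on either choline-deficient diet was above every WT control, and the CD-LFD and CD-HFD ranges overlapped. Cd8a rose by 4.27 ± 0.69 on CD-HFD (log2, SE; 95% interval 2.88 to 5.67; edgeR adjusted p = 2.18e-06) and by 3.30 on CD-LFD (edgeR adjusted p = 0.000742). In pooled counts the CD-HFD ratio was 19.9, with a counting interval of 9.53 to 49.9.

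In Ripk3KO, Cd8a was at most 0.315 CPM on control, then 2.71, 2.53 and 5.29 CPM in the CD-LFD libraries and 3.66, 6.36, 2.10 and 6.83 CPM in the CD-HFD libraries. In MlklKO it was at most 0.438 CPM on control, then 3.73, 1.04, 5.13 and 1.79 CPM in the CD-LFD libraries and 2.79, 3.13 and 11.9 CPM in the libraries labelled CD-HFD replicates 1, 2 and 4. Here too all diet libraries were above all controls, and the 2 diets overlapped. Cd8a rose on CD-HFD by 5.17 in Ripk3KO (edgeR adjusted p = 6.66e-07) and by 5.12 in MlklKO (4e-07) on the log2 scale. The MlklKO mean of 5.93 CPM was 2.96 without replicate 4 and 7.50 without the library labelled MlklKO CD-HFD replicate 1.

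Cd8b1, whose product is found in CD8 of conventional cytotoxic T cells, gave 1 count over the 6 WT control libraries, against a WT CD-LFD range of 0.419 to 1.86 CPM and a CD-HFD range of 1.05 to 3.05 CPM. No diet library overlapped a control. It rose by 5.20 ± 0.73 on the log2 scale on CD-HFD (edgeR adjusted p = 1.52e-07), and the pooled ratio of 48.1 had a counting interval of 8.45 to 1920, since 1 control count fixes it poorly.

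Cd4 behaved apart from the other 9. CD4 marks helper T cells, and its transcript is also known from some dendritic cells. In WT, Cd4 was 0.977 to 4.11 CPM on control (median 2.53), 0.167 to 1.99 on CD-LFD (median 0.658), and 1.30 to 4.51 on CD-HFD (median 1.90). The CD-LFD libraries were the low ones, and the ranges of all 3 diets overlapped. On CD-LFD it fell by 1.50 on the log2 scale (SE 0.45; 95% interval -2.41 to -0.58; edgeR adjusted p = 0.0117). That call was lost in the fit of the 2 groups alone (log2 change -1.51; edgeR adjusted p = 0.0571) and held in each of the 12 fits that left out 1 library.

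On CD-HFD, Cd4 did not differ detectably from control in any genotype: the log2 difference was -0.12 in WT (95% interval -0.97 to 0.72; edgeR adjusted p = 0.833), 0.61 in Ripk3KO (-0.36 to 1.58; 0.31) and 0.61 in MlklKO (-0.42 to 1.65; 0.34). With library size alone the WT difference changed sign to 0.38, and the Ripk3KO one became 1.13 and passed (edgeR adjusted p = 0.0473). In the knockouts Cd4 on CD-LFD was 0.417, 0.632 and 0.529 CPM in Ripk3KO and 0.678, 0.894, 0.802 and 0.298 CPM in MlklKO, and the differences from control of -1.28 (SE 0.66; edgeR adjusted p = 0.154) and -1.17 (SE 0.55; 0.0868) did not pass. Cd4 was higher on CD-HFD than on CD-LFD in WT (1.37 ± 0.43, SE; edgeR adjusted p = 0.0166) and in MlklKO (1.79; 0.0259), and by 1.89 without passing in Ripk3KO (0.0655).

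Set against each other, the coreceptor counts moved from mostly Cd4 to mostly Cd8a. The cells that carried Cd4 were not identified, so the share is one of transcripts and not of T cell types. In the control libraries Cd4 had 1 to 22 counts, against at most 4, 3 and 5 for Cd3d, Cd3e and Cd3g. Over the libraries with at least 10 counts of the pair, Cd8a made up 6.23% ± 5.44 (SD, n = 3) of Cd8a plus Cd4 counts in WT controls, 70.2% ± 17.0 (n = 5) with the CD-LFD and 70.4% ± 8.43 (n = 6) with the CD-HFD. In the 3 usable Ripk3KO control libraries the share was 0%, 20% and 10%, and on the diets it was 85.9% ± 5.50 (n = 3) and 70.9% ± 3.50 (n = 4) in the same order. In MlklKO it was 7.40% ± 9.16 (n = 3), 77.7% ± 15.9 (n = 4) and 70.1% ± 3.78 (n = 3), the last being 70.4% (n = 2) without the library labelled replicate 1. No library on a choline-deficient diet overlapped a control library in this share in any genotype, as the plot of the Cd8a share shows. Pooled over all 6 libraries of a group, it was 7 of 75 counts in WT control (9.33%, exact 95% interval 3.84 to 18.3%) and 292 of 419 on CD-HFD (69.7%, 65.0 to 74.1%), intervals that cover counting error only.

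The exact permutation test of the share (two-sided) gave p = 0.0119 for WT CD-HFD against control, 0.0179 for WT CD-LFD, and 0.0286 for both Ripk3KO CD-HFD and MlklKO CD-LFD, each the smallest value the numbers of libraries allow. With 3 libraries a side the smallest possible p was 0.1, which Ripk3KO CD-LFD and MlklKO CD-HFD reached. Without the library labelled Ripk3KO control replicate 5 the exact permutation p of Ripk3KO CD-HFD was 0.0667, the smallest that 2 control libraries allow. Adjusted over the 13 share tests that could be made, of 27 planned, these permutation p-values were 0.0743 and, for these last comparisons, 0.144, so that none passed 0.05. With every library that had at least 1 count of the pair admitted, all 6 comparisons with control passed, with adjusted permutation p-values of 0.0195 to 0.0402 and differences of 58.8 to 79.0 percentage points. In Ripk3KO the share differed by -14.99 percentage points between CD-HFD and CD-LFD, lower on CD-HFD (exact permutation p = 0.0286, adjusted 0.0743), without overlap, whereas in WT the 2 diets differed by 0.197 points (exact permutation p = 0.985); the difference between genotypes was not tested.

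**Figure D3:**
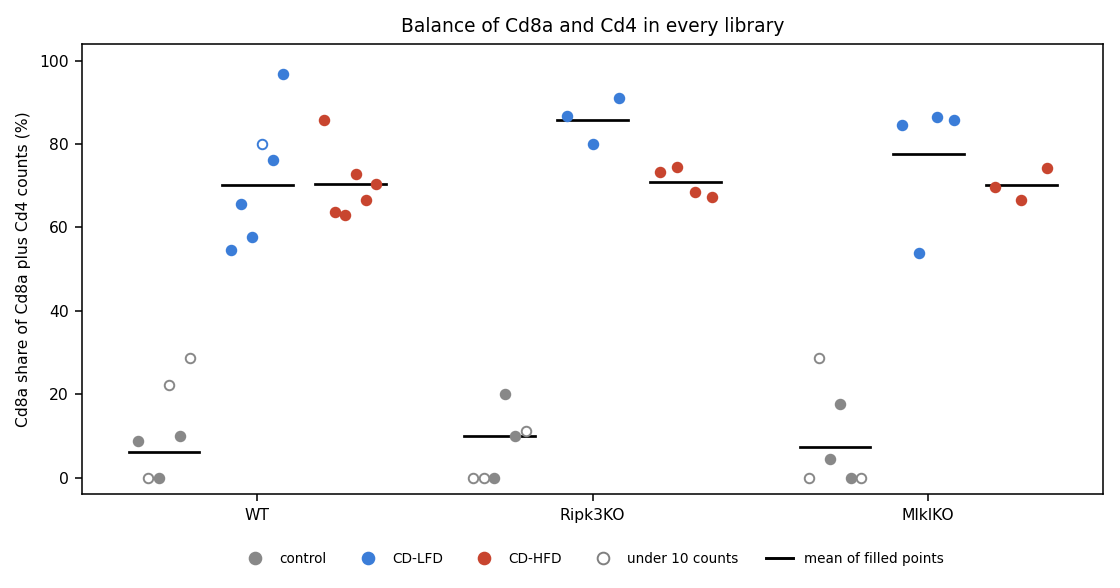
Cd8a counts as a percentage of Cd8a plus Cd4 counts in each library, by genotype and diet; filled points are libraries with at least 10 counts of the pair, open points those with fewer, and black lines the means of the filled points. Filled control points lie at or below 20% and open ones reach 28.6%, while all libraries on a choline-deficient diet lie at or above 53.8%.

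Among the cytotoxic genes, Nkg7, which codes for a granule membrane protein of cytotoxic T and NK cells, rose on both diets. In WT it was 0 to 0.733 CPM on control (median 0.0851), 0.907 to 3.44 on CD-LFD (median 1.84), and 1.86 to 6.21 on CD-HFD (median 3.62). All 12 choline-deficient libraries were above all 6 controls. It rose by 4.15 ± 0.68 (log2, SE; edgeR adjusted p = 2.78e-06) on CD-HFD, or 19.1-fold in pooled counts (8.04 to 59.4), and by 3.25 (edgeR adjusted p = 0.000789) on CD-LFD. Per kilobase of exon it was also the most abundant member in WT CD-HFD, at 3.95 CPM per kb, followed by Cd8a at 1.49 and Cd8b1 at 1.27, with Cd3e lowest at 0.440. In WT control the highest per kilobase was Cd4, at 0.624 CPM per kb.

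Gzmk and Gzmb code for 2 granzymes, serine proteases with different substrates; granzyme B activates apoptosis in the target cell. Gzmk in WT was 0 to 0.913 CPM on control (median 0), 0 to 0.279 on CD-LFD (median 0.145), and 0.813 to 2.56 on CD-HFD (median 1.01). All 6 CD-HFD libraries were above all 6 CD-LFD libraries, and 1 control library reached into the CD-HFD range. Gzmk rose on CD-HFD by 3.06 ± 0.69 against CD-LFD (log2, SE; edgeR adjusted p = 0.00117) and by 3.83 ± 0.97 against control (0.00132), where it had 2 counts over the 6 control libraries.

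In Ripk3KO, Gzmk had no count in any of the 6 control libraries and was 0, 1.43, 0.612 and 4.35 CPM in the CD-HFD libraries. Replicate 1 had none and replicate 5 had most of it, so that the CD-HFD mean of 1.60 CPM was 0.679 without replicate 5. Set against a floor of 3 counts over the control group, it was at least 18.0-fold higher on CD-HFD, or at least 7.63-fold without replicate 5, and the counting interval of the pooled ratio began at 16.5. On CD-LFD, where it was 0.417, 0.211 and 0.680 CPM, it was at least 4.90-fold higher by the same floor, and the counting interval began at 4.11. In MlklKO, Gzmk was 0.424, 0.596, 0.802 and 0 CPM in the CD-LFD libraries and 0.696, 1.96 and 3.07 CPM in the libraries labelled CD-HFD replicates 1, 2 and 4, a rise against control of 4.04 on the log2 scale (edgeR adjusted p = 0.000315), or 4.39 without the library labelled replicate 1.

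Gzmb in WT was 0 to 0.913 CPM on control (median 0.329), 0.167 to 0.861 on CD-LFD (median 0.387), and 0.406 to 2.98 on CD-HFD (median 1.43). The CD-HFD libraries fell into 3 low values, 0.406, 0.545 and 0.433 CPM in replicates 1, 3 and 4, inside the control range, and 3 high values, 2.31, 2.98 and 2.37 in replicates 2, 5 and 6. The rise against control was 2.12 ± 0.72 (log2, SE; 95% interval 0.67 to 3.58; edgeR adjusted p = 0.0137), the smallest of the 9 in WT. It was 3.67 in Ripk3KO (edgeR adjusted p = 0.000459) and 2.59 in MlklKO (0.00449), or 2.996 without the library labelled MlklKO CD-HFD replicate 1.

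As a share of the 2 granzymes' counts, Gzmk was 44.5% of 164 pooled counts in WT CD-HFD (exact 95% interval 36.8 to 52.5%) and 17.6% of 108 in WT CD-LFD (10.9 to 26.1%), where WT CD-LFD replicate 3 gave 90 of the 108. Over libraries with at least 10 counts, it was 49.5% ± 16.8 (SD, n = 5) in WT CD-HFD, 54.8% ± 8.62 (n = 3) in Ripk3KO CD-HFD and 40.0% ± 1.60 (n = 3) in MlklKO CD-LFD. No control library had 10 counts of the pair, so that the share could not be compared with control.

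Pdcd1 had no count in any WT control library. In WT it was 0 to 1.11 CPM on CD-LFD (median 0.318) and 0.545 to 2.03 on CD-HFD (median 1.04). Every CD-HFD library had the transcript, and CD-LFD overlapped both other diets. Against a floor of 3 counts over the control group it was at least 10.4-fold higher on CD-HFD; the fitted change of 6.37 ± 1.37 (log2, SE; edgeR adjusted p = 0.000215) depends on the prior count. In Ripk3KO, Pdcd1 was 0.333, 1.75, 0.962 and 3.33 CPM in the CD-HFD libraries, and 1 count over the 6 controls gave a pooled ratio of 59.9 (counting interval 10.4 to 2400). In MlklKO it was 0.871, 1.30 and 4.53 CPM in the libraries labelled CD-HFD replicates 1, 2 and 4, and the mean of 2.24 was 1.09 without replicate 4.

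Relative to the CD3 chains, Pdcd1 was 10.4% ± 8.85 (SD, n = 5) of Pdcd1 plus CD3 chain counts in WT CD-LFD and 12.98% ± 3.72 (n = 6) in WT CD-HFD, a difference within the spread between libraries (exact permutation p = 0.539, adjusted 0.675). On CD-HFD it was 15.1% ± 8.12 (n = 4) in Ripk3KO and 21.8% ± 3.33 (n = 3) in MlklKO, where it was 23.5% (n = 2) without the library labelled replicate 1. In MlklKO the share was 15.2% ± 3.50 (n = 4) on CD-LFD, 6.58 percentage points lower than on CD-HFD (exact permutation p = 0.0857, adjusted 0.144).

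The knockouts were compared with WT on the same diet in 60 tests, 6 for each gene, and 0 passed. With edgeR 1 of the 60 had an unadjusted p under 0.05, Cd4 in Ripk3KO controls (log2 difference -0.94; unadjusted p = 0.0488, edgeR adjusted p = 0.248), and DESeq2 also called 0. Adjusted p-values ran from 0.239 to 0.999. Over all genes, in either direction, 4.47% were called in Ripk3KO and 27.1% in MlklKO on control, 1.10% and 2.56% with CD-LFD feeding, and 0.377% and 0% on CD-HFD, where in MlklKO 1246 genes had an unadjusted p under 0.05 with edgeR and DESeq2 called 0. With library size alone, the share of called genes that were higher was 24.1% in Ripk3KO on control, 48.3% on CD-LFD and 34.4% on CD-HFD, where the main scaling had 50.2%, 72.0% and 55.4%, and 17.0% in MlklKO on CD-LFD, where it had 63.8%. With the clock gene ratio as a covariate the share called fell to 1.16% in Ripk3KO on control, where the ratio ran from -8.08 to 2.72 in the WT libraries. In MlklKO on control 1781 genes were then called higher and 1502 lower, against 1932 and 2097 in the main fit. With CD-LFD feeding the shares fell to 0.074% and 0.121% in Ripk3KO and MlklKO. There the ratio ran from -2.68 to -0.28 in WT, from -7.47 to -6.20 in Ripk3KO and from -7.24 to -5.91 in MlklKO. Without overlap, ratio and genotype cannot be told apart on CD-LFD. A fit of only the compared groups, with the same genes tested, called 0.417% in Ripk3KO and 11.6% in MlklKO on control, 1.59% and 3.51% with CD-LFD feeding, and 1.70% and 0.0135% on CD-HFD. Without WT control replicates 5 and 6 the share in Ripk3KO on control was 2.38%. The members called stayed at 0 in these fits. In the 6 comparisons there were 0 members whose knockout libraries all lay above the WT libraries. Of all genes, 0.572% in Ripk3KO and 3.08% in MlklKO did so on control, 4.27% and 3.88% with CD-LFD feeding, and 2.96% and 2.35% on CD-HFD.

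On CD-HFD, the diet on which the members were high, the fitted differences from WT were small next to the diet changes. They ran from -0.21 to 0.52 (log2) in Ripk3KO, with 95% intervals reaching -1.15 and 1.69, and from -0.44 to 0.97 in MlklKO, with intervals reaching -1.42 and 2.24. Group means of Cd8a, for example, were 5.43 CPM in WT, 4.74 in Ripk3KO and 5.93 in MlklKO. The sum of the 10 members averaged 24.7, 25.8 and 27.5 CPM in the same order. The MlklKO mean was 16.5 CPM without replicate 4, below the WT mean, and 34.6 CPM without the library labelled replicate 1. The intervals leave room for differences of about the size seen between the 2 diets, so the test does not show that the genotypes act alike. Without the library labelled MlklKO CD-HFD replicate 1 the count against WT was still 0.

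The interaction of knockout and diet asks whether a diet changed a gene by a different amount in the knockout than in WT. In 40 such tests, 4 for each gene, 0 passed with edgeR, 0 had an unadjusted p under 0.05 and DESeq2 called 0. Over all genes 0.0269% were called for Ripk3KO with CD-LFD, 8.45% for MlklKO with CD-LFD, 0.478% for Ripk3KO with CD-HFD and 4.12% for MlklKO with CD-HFD. These shares moved with the fit: in the same order they were 0%, 4.65%, 0.135% and 1.53% with only the compared groups and the same genes tested, 0.101%, 10.7%, 1.01% and 6.71% without WT control replicates 5 and 6, and 0.3%, 12.9%, 1.58% and 7.3% with DESeq2, and the members called stayed at 0. The fitted interactions of the members ran from -2.04 to 4.38 on the log2 scale, the wide range of genes with few control counts.

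**Figure D4:**
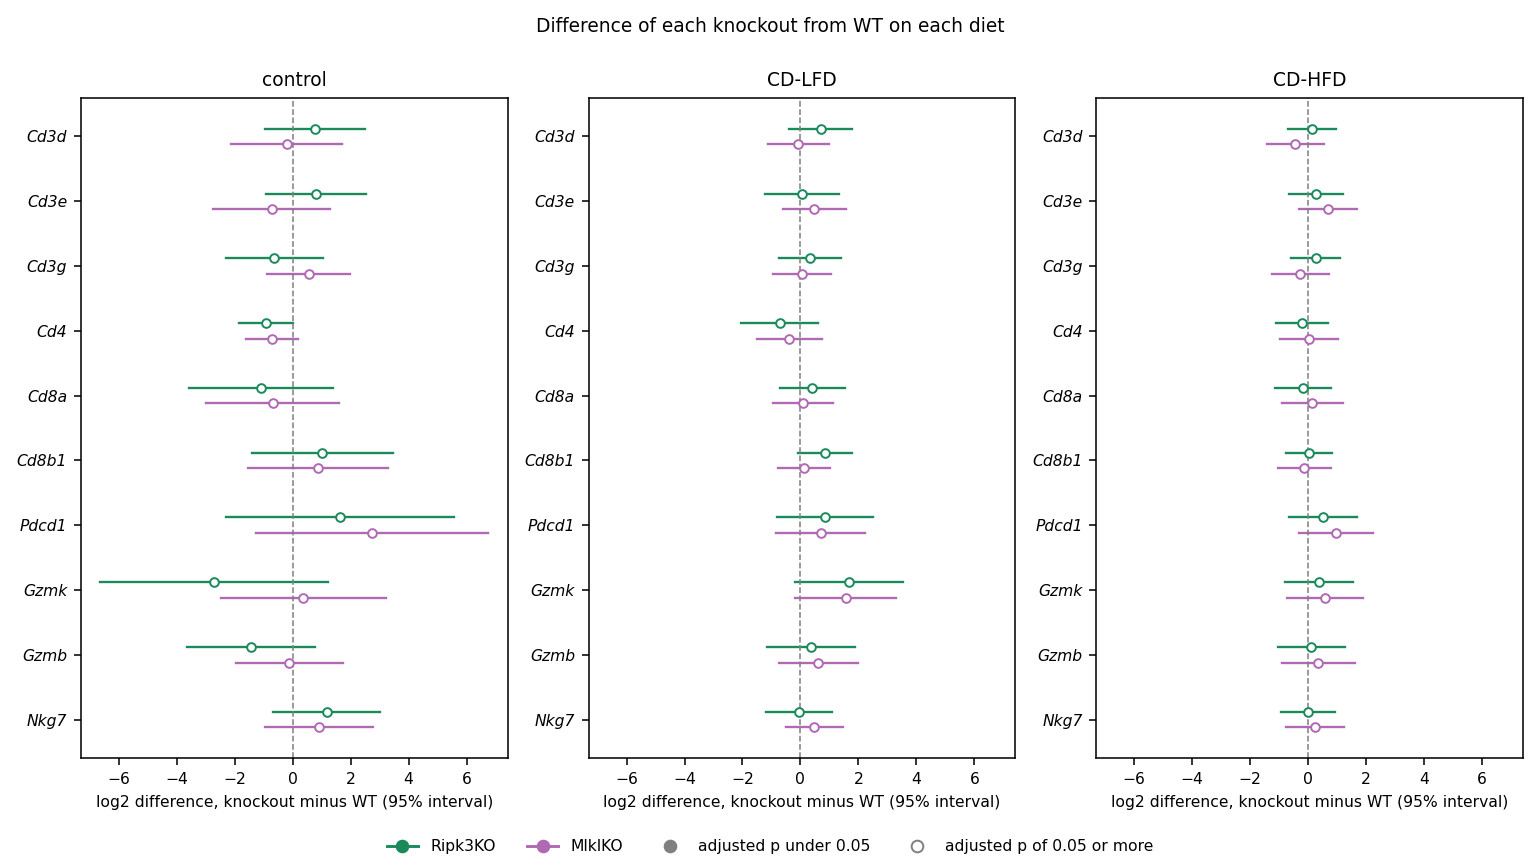
Log2 difference of each of the 10 genes between each knockout and WT on the same diet, from the edgeR fit, with bars for the 95% interval, open points where the adjusted p is 0.05 or more and a dashed line at 0. On CD-HFD the differences lie between -0.44 and 0.97 and all intervals span 0.

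Within groups the members varied together to different degrees. Taken as deviations from the group mean over the 44 libraries, which share their depth and scaling, the 45 pairs had Pearson correlations from -0.03 (Cd4 with Cd3g) to 0.61 (Nkg7 with Cd3g), with a median of 0.32, and 3 pairs were below 0. Each gene against the mean of the other 9 gave 0.71 for Pdcd1, 0.68 for Cd8a, 0.59 for Cd3d, 0.55 for Cd3g, 0.51 for Nkg7, 0.48 for Cd3e, 0.46 for Gzmb, 0.41 for Cd8b1, 0.34 for Gzmk and 0.31 for Cd4. Over the 9 group means, Cd4 stood apart, with 0.09 against 0.93 to 0.98 for the others. The neighbours Cd8a and Cd8b1 correlated at 0.52 within groups, Cd3d and Cd3e at 0.50, and Cd3d and Cd3g at 0.46. Cd3e and Cd3g, with Cd3d between them, correlated at 0.32, the median of all pairs. These are descriptions over sparse counts.

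**Figure D5:**
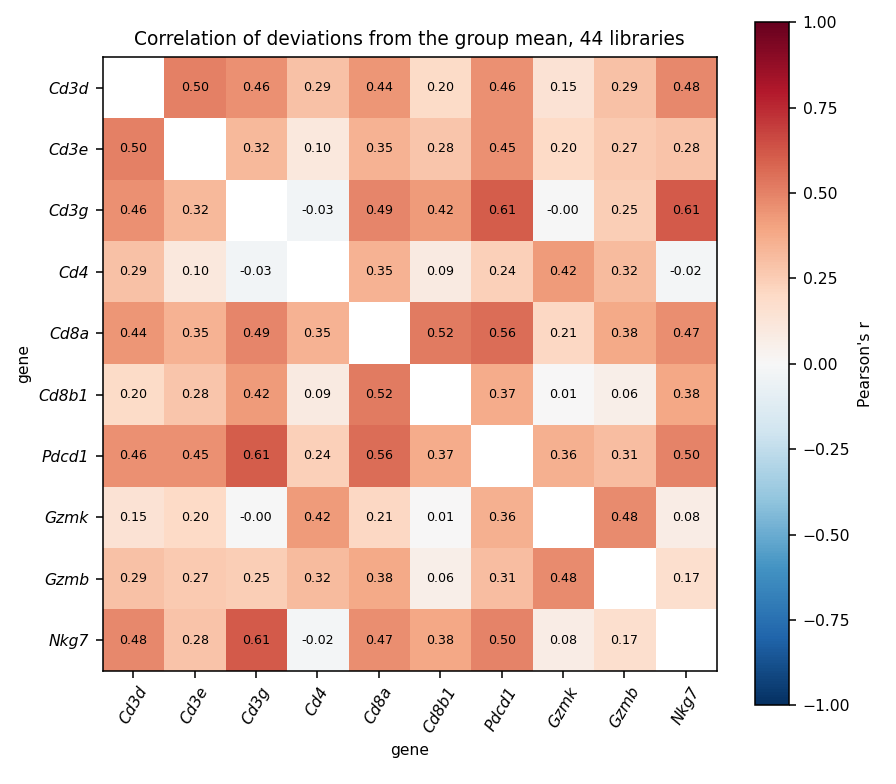
Pearson correlation between each pair of the 10 genes, over deviations of log2 CPM from the group mean in 44 libraries. Pairs run from -0.03 to 0.61, and the 3 pairs below 0 are Cd3g with Cd4, Nkg7 with Cd4 and Cd3g with Gzmk.

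Single libraries stood out over the whole list. Ripk3KO CD-HFD replicate 5 and MlklKO CD-HFD replicate 4 were each the highest library of their group for 10 of 10 members. Ripk3KO CD-LFD replicate 3 was the highest for 8, MlklKO CD-LFD replicate 3 for 7 and WT CD-HFD replicate 2 for 6. The library labelled MlklKO CD-HFD replicate 1 was the lowest of its group for 8.

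Ranked by the same within-group correlation with the mean of the 10 members, among 13137 other genes, the genes most alike were H2-Ab1 (0.71), Gimap4 (0.69), Cxcl9 (0.67), Bcl11b (0.67), Baiap3 (0.65), Lck (0.65), Ulk4 (0.65), Tcrg-C2 (0.64), Cd6 (0.62) and H2-Eb1 (0.62). Lck is the kinase that phosphorylates the CD3 chains, Bcl11b is a T cell transcription factor, Cd6 is a T cell surface receptor, and H2-Ab1 and H2-Eb1 code for MHC class II chains. Ranked by the 9 group means instead, the 10 were Traf3ip3, Lgals3, Rab7b, Hmgn2, Mmp12, Gpx3, Slfn10-ps, Sulf1, Phlda3 and Samhd1, from 0.998 to 0.994, and none was on the first list.

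Other genes of the T cell receptor pathway rose with the members. For the lists that follow, the shares of all genes called higher on CD-HFD against control were 23.5%, 24.6% and 24.9% in WT, Ripk3KO and MlklKO, and those called lower 24.1%, 21.7% and 20.3%. Genes tested in a list passed the same filter over the 9 groups, so genes low on control could enter through groups where they were high. Counts of genes called in the lists are descriptions as well. Of 20 genes of the T cell receptor pathway, 19 were tested, and on CD-HFD against control 16 rose in WT, 17 in Ripk3KO and 17 in MlklKO, with 0 lower and a median log2 change of 2.65, 2.74 and 3.16. Cd5, an inhibitory receptor that tunes receptor signalling, rose by 4.92 in WT (edgeR adjusted p = 3.72e-06), the adaptor gene Fyb by 2.03 (1.15e-07), Thy1 by 2.80 and the receptor constant gene Trbc1 by 3.09, although reads of Trbc1 could be shared with its near copy. On CD-LFD 11, 14 and 14 rose in the 3 genotypes, and 1, 1 and 0 were lower, with 11 in place of 14 higher in Ripk3KO without the library labelled Ripk3KO control replicate 5. Of all genes, 13.7%, 14.0% and 19.7% were called higher on CD-LFD against control, and 2077, 1501 and 2713 of 14862 lower. Of 16 T cell transcription factor and naive or memory genes, 14 were tested, and on CD-HFD 10, 11 and 11 rose and 2, 2 and 1 fell. Il7r, the receptor for the survival cytokine IL-7, went from 0.354 to 8.31 CPM in WT, a rise of 4.70, and Runx3, a factor of the CD8 lineage, rose by 3.23. The summed level of these 16 genes went the other way in WT, with a mean of 212 CPM on control (163 to 287) and 168 on CD-HFD (135 to 217), ranges that overlapped. Id2, named after its values were seen, made up 69.4% of that sum on control and averaged 147 CPM there and 81.9 on CD-HFD.

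Of 15 cytotoxic granule and effector genes, 13 were tested and 11, 11 and 12 rose on CD-HFD. Ccl5, a chemokine made by activated CD8 T and NK cells, averaged 0.898, 6.02 and 13.2 CPM in WT on control, CD-LFD and CD-HFD, a rise of 4.02 on CD-HFD (edgeR adjusted p = 5.32e-09). Xcl1, which draws cross-presenting dendritic cells, rose by 4.66, Ccl4 by 3.48 and Tnf by 3.37. The summed level of the 15 genes overlapped between diets, with a mean of 429 CPM in WT control (128 to 646) and 498 on CD-HFD (350.1 to 667), 629 and 636 in Ripk3KO, and 542 and 621 in MlklKO. Lamp1, named after its values were seen, made up 96.5% of that sum in WT control. Of 15 checkpoint and exhaustion genes, 12 were tested, and 7, 9 and 9 rose and 1, 0 and 0 fell. Havcr2, which codes for TIM-3, rose by 3.45 in WT, Cd274, which codes for the PD-1 ligand PD-L1, by 2.71 and Entpd1, which codes for CD39, by 1.86. Which cells carried the transcripts of these lists was not tested, and macrophage and dendritic cell markers rose on CD-HFD too.

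Lag3, a checkpoint gene next to Cd4 on chromosome 6, fell on both diets in WT, where it averaged 5.33 ± 3.06 CPM (SD, n = 6) on control, 2.29 on CD-LFD (log2 change -1.21; edgeR adjusted p = 0.00327) and 2.88 on CD-HFD (-0.88; 0.0159). In MlklKO it averaged 1.09, 2.83 and 1.92 CPM and was higher on CD-LFD than on control (1.34; 0.00484), while the CD-HFD difference did not pass (0.77; 0.14). In Ripk3KO it averaged 2.32, 2.85 and 2.78 CPM, and neither diet passed. With the clock gene ratio as a covariate, a fit added after seeing the data, the WT CD-HFD call was lost (-0.42; edgeR adjusted p = 0.363). In the controls it was lower in both knockouts, 2.32 CPM in Ripk3KO (log2 difference -1.20; edgeR adjusted p = 0.0232) and 1.09 CPM in MlklKO (-2.21; 9.45e-06). Without the library labelled Ripk3KO control replicate 5 the Ripk3KO difference was -1.07 and no longer passed (edgeR adjusted p = 0.0673), nor did it with the clock covariate (-0.60; 0.604). Its within-group correlation with Cd4 was 0.23. Skap1, an adaptor of T cell adhesion, was lower in the controls of both knockouts as well, with log2 differences from WT of -2.56 in Ripk3KO and -2.42 in MlklKO, but the Ripk3KO call was lost without that library (-2.62; edgeR adjusted p = 0.0502) and with the clock covariate (-2.17; 0.278).

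Of 17 recruitment and antigen presentation genes, 16 were tested and 13 rose on CD-HFD in each genotype. The sum of the 17 overlapped in WT between control (883 to 2134 CPM) and CD-HFD (1718 to 2127 CPM). On control, CD-LFD and CD-HFD it averaged 1543, 1968 and 2028 CPM in Ripk3KO. In MlklKO it averaged 1299, 2418 and 1679 CPM, highest on CD-LFD. Cxcl10, which attracts activated T cells, went from 1.54 to 13.3 CPM in WT (log2 rise 3.07), Cxcl16, the ligand of CXCR6, rose by 1.91, Ccr2, a receptor of recruited monocytes and T cells, by 3.43 and the adhesion gene Vcam1 by 2.30. Of 12 regulatory and gamma-delta T cell genes, 9 were found under their symbols and 5 were tested. Trgc1, Trgc2 and Il17a were not found, and the gamma chain constant genes that the table holds under other symbols, such as Tcrg-C2, were not counted in the list. Of the 5, 1, 2 and 1 rose and 0, 1 and 1 fell on CD-HFD, counts that in WT and MlklKO were near the 23.5% and 24.9% of all genes called higher. Ikzf2, which codes for Helios, was the one that rose in WT, by 3.69. The sum of the 9 genes averaged 97.96 CPM in WT control (52.9 to 169) and 85.5 on CD-HFD (50.4 to 124).

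Without the library labelled MlklKO CD-HFD replicate 1, the counts of genes called higher or lower in MlklKO CD-HFD against control moved by at most 1 in each of the 13 lists of genes, cell markers included, and those in Ripk3KO CD-HFD against control did so as well once the library labelled Ripk3KO control replicate 5 was left out. In Ripk3KO CD-LFD against control they then moved by up to 3, and in Ripk3KO against WT controls by up to 2. These fits were chosen after seeing the data.

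Markers of other cells moved with the members, and their part in the members' changes was not tested. NK cells share Gzmb and Nkg7. Of 12 NK genes, 4 were tested, all 4 rose on CD-HFD in each genotype (Klrd1 by 4.07, Klre1 by 3.81, Cd244a by 2.69 and Il2rb by 2.19 in WT), and the sum of the 12 ranged from 1.71 to 4.64 CPM in WT control, where 4 of the 12 had no count, and from 11.8 to 27.2 on CD-HFD. With the list this low on control, the 4 could pass the count filter through the groups in which they were high, so the count is a description. Of 7 genes of all leukocytes, 7 rose on both diets in each genotype, against 23.5% to 24.9% of all genes on CD-HFD and 13.7% to 19.7% on CD-LFD. Their sum ranged from 23.1 to 51.1 CPM in WT control, 77.2 to 128 on CD-LFD and 228 to 336 on CD-HFD. Macrophage and dendritic cell markers rose in 10 of 12 on CD-HFD in each genotype (Trem2, a marker of lipid-associated macrophages, by 6.73 in WT), with a sum of 204 to 285 CPM in WT control and 796 to 1995 on CD-HFD.

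Neutrophil markers rose in 3, 1 and 1 of 4 tested on CD-HFD, near the share of all genes in the knockouts (24.6% and 24.9%), and in WT their sum ranged from 0.922 to 11.7 CPM on control and from 18.6 to 35.3 on CD-HFD. B and plasma cell markers rose in 1, 4 and 4 of 6 tested, and in WT their sum overlapped between control (27.4 to 68.4 CPM) and CD-HFD (16.7 to 89.8 CPM). Hepatocyte markers were present in every group, and on CD-HFD 8, 8 and 5 of the 8 fell (Alb by 0.86 in WT), where 24.1%, 21.7% and 20.3% of all genes were called lower. In WT their sum averaged 121779 CPM on control and 67348 on CD-HFD. Endothelial and stellate cell markers went both ways, with 4 of 10 higher in each genotype (Col1a1 by 4.67 in WT) and 4, 3 and 1 lower, against 23.5% to 24.9% of all genes higher and 20.3% to 24.1% lower. The mean scaling factor also moved with diet in WT, from 0.891 on control to 1.26 on CD-HFD.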

How the data were processed

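Total RNA of mouse liver was sequenced from strand-specific libraries, per the labels' protocols. The authors deposited 1 table of raw counts per Ensembl gene for 44 libraries; per the submitters' processing notes the tools were FastQC, STAR, HTSeq, edgeR and limma, on GRCm39 (mm39), with versions and strand setting not given in the sources used here. Of 35249 identifiers, 34373 matched a symbol and 876 did not. No 2 libraries of a group agreed within sampling noise (chi-square per degree of freedom 7.22 to 110).

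From the deposited counts, genes passing edgeR's filterByExpr over 9 groups (minimum count 10) were kept: 14862 genes, with 99.8% of counts. Counts were scaled by TMM (factors 0.799 to 1.34) and fitted with edgeR 4.0.16 (quasi-likelihood test, R 4.3.3) in 1 model over the 9 groups with 19 contrasts, adjusted by Benjamini-Hochberg over all genes of a contrast; the procedure was tested on simulated data. CPM values carry these factors, exon lengths are from GENCODE M21, and intervals are 95%. Shares of counts were compared by exact two-sided permutation tests. Alternatives were DESeq2 1.42.0, other scalings, filters, covariates and samples, and each library left out in turn.

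The 10 members and the gene lists were chosen with earlier results of these data known. From each list the text names genes among the 4 with the smallest adjusted p in WT CD-HFD against control. Of list genes called between genotypes it names only Lag3 and Skap1, and any others are left out. Most alike genes are the 10 with the highest correlation among genes with a mean log2 CPM of at least -1 (prior count 2). No genome of the files' build was used for coordinates; promoters are RefSeq's on GRCm38.p6.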

Additional observations from a re-analysis of the deposited data

Results flagged for a closer look

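Of 58 sets of 4 to 6 libraries checked for a library far from the rest, 1 was picked out, and chance alone picks out about 1 set in 20. In MlklKO CD-LFD the Cd8a share of Cd8a plus Cd4 counts was 53.8% in replicate 2, while the other 3 libraries lay between 84.6% and 86.5%. The gap to the nearest library was 0.943 of the whole range of the group. Replicate 2 rested on 7 Cd8a counts of 13 for the pair, and its exact 95% binomial interval ran from 25.1% to 80.8%, for counting error only.

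The change from control to CD-LFD differed between MlklKO and WT for 2 T cell genes outside the 10, by the test of the difference itself. For Lag3 the difference was 2.55 on the log2 scale (edgeR's quasi-likelihood test, adjusted p = 0.000884), a rise of 1.34 in MlklKO against a change of -1.21 in WT. For Skap1 it was 2.75 (adjusted p = 0.0355), 2.51 in MlklKO against -0.24 in WT, the last not passing. With the clock gene ratio as a covariate both still passed, at 2.71 and 2.86.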

How the results depend on the processing

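Counts of members called that moved by over 1.5 times were these. A fit of only the compared groups left fewer members to test and called 4 of 5 in WT CD-HFD against control, 3 of 6 in WT CD-HFD against CD-LFD, 3 of 4 in Ripk3KO CD-HFD against control, 1 of 1 in Ripk3KO CD-LFD against control, 1 of 8 in Ripk3KO CD-HFD against CD-LFD, 3 of 4 in MlklKO CD-HFD against control and 0 of 3 in MlklKO CD-HFD against CD-LFD; no member was left in WT or MlklKO CD-LFD against control or in Ripk3KO against WT control. The members left were those with enough counts in the compared groups. Of all genes, that fit called 2596 of 12937 and 1828 of 13225 higher in the WT comparisons, in the order above. In Ripk3KO it called 3317 of 13196, 1194 of 12159 and 1438 of 13724 higher. In MlklKO it called 3200 of 12901 and 2438 of 13129 higher. With all genes kept in that fit, a setting chosen after seeing the data, 3 were called in WT CD-LFD against control and 1 in Ripk3KO CD-HFD against CD-LFD. Library size alone gave 8, 1 and 5 in CD-HFD against CD-LFD in WT, Ripk3KO and MlklKO, where 3058, 1360 and 4776 of 14862 genes were called higher. In the same comparison a clock gene covariate (the Arntl to Dbp ratio) gave 2 in WT, DESeq2 1 in Ripk3KO and 1 in MlklKO, RLE size factors 4 in MlklKO and no count filter 1 in MlklKO. Genes called higher there were 1841 of 14862 with the clock covariate, and 1042 of 15428 and 2441 of 17477 with DESeq2. In MlklKO they were 2340 of 14862 with RLE size factors and 1796 of 35249 without a count filter. The causes were not tested. Leaving out 1 library gave 9 to 9 for CD-HFD against control in each genotype, 4 to 8, 2 to 7 and 4 to 7 for CD-LFD against control in WT, Ripk3KO and MlklKO, 3 to 7, 0 to 1 and 0 to 4 for CD-HFD against CD-LFD, and 0 for knockouts and interactions. A denominator of at least 1 count moved share differences past the threshold: Cd8a, CD-HFD against control, 58.8, 64.0 and 61.7 points in WT, Ripk3KO and MlklKO, CD-LFD 60.2, 79.0 and 69.2; Pdcd1, Ripk3KO CD-HFD against control, 13.4. Same-numbered libraries did not deviate together (0 of 36 group pairs had every correlation over 0.1); with the replicate number as a block, 9, 8 and 5 were called in WT for CD-HFD against control, CD-LFD against control and CD-HFD against CD-LFD, 9, 8 and 0 in Ripk3KO, 9, 9 and 2 in MlklKO, and 0 for knockouts and interactions. In the same order of diets, the block fit called 3567, 2094 and 2095 of 14862 genes higher in WT. It called 3703, 2325 and 852 higher in Ripk3KO and 3782, 3277 and 2311 in MlklKO. On CD-LFD against control it called 2108, 1954 and 3119 lower in WT, Ripk3KO and MlklKO. No called value reversed. Each control value of the 9 members other than Cd4 rests on 0 to 5 counts, which limits the precision of their changes.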
